A study of Sus scrofa with 6 samples.

Results

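The RNA polymerases and the general transcription machinery were examined in immature pig oocytes, each sequenced alone while its nucleus was still an intact germinal vesicle. Members were all genes whose pig symbol begins with POLR1, POLR2 or POLR3, with GTF2 or GTF3, or with MED or TAF followed by a digit, apart from 1 germ-cell TAF paralogue that the rule leaves out. The reference gene table held 102 such symbols, and 95 of them were matched by NCBI gene ID among the 19300 genes of the deposited files. The other 7 were MED22, TAF1A, TAF6, TAF15, POLR3F, GTF3C2 and GTF3C3, and they were not analysed here. The 95 members comprised 27 polymerase subunits, 20 general factors, 29 Mediator subunits and 19 TAFs.

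The samples were 3 BCB-positive and 3 BCB-negative oocytes, 1 oocyte per library. All came from antral follicles 3 to 6 mm wide, had not been matured in culture, and had lost their cumulus cells and zona pellucida before lysis. Growing oocytes decolour brilliant cresyl blue (BCB), so those that stay blue, called BCB-positive, are generally taken as fully grown and BCB-negative ones as still growing. For no oocyte do the labels name the animal, its breed or age, or a culture. Each class was therefore treated as 1 sample of 3 cells, the classes were described without a test, and every SD below is a spread between the oocytes of a class.

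RNA polymerase I makes ribosomal RNA, polymerase II makes messenger RNA, and polymerase III makes transfer RNA and other small RNAs. General factors bring each polymerase to its start sites. TFIID, built from the TATA-binding protein and its associated factors (TAFs), marks the start of genes for polymerase II, and Mediator carries signals from bound regulators to that polymerase. A growing oocyte transcribes actively, and a fully grown oocyte becomes nearly silent while keeping a large store of messenger RNA. Several of these proteins have a germ-cell paralogue, among them GTF2A1L of TFIIA and TBPL2, a relative of the TATA-binding protein that in mouse oocytes acts in its place. The values here are messenger RNA levels and do not measure polymerase activity.

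Libraries held between 7122749 and 9238987 expected counts, of which the members took between 0.996% and 1.14%. Between 89 and 91 members had a count in each oocyte, and 84 had one in all 6. BCB-positive oocyte 3 stood apart. Its mean Pearson correlation with the other oocytes, over the 84 members compared, was 0.876, against 0.898 to 0.928 for the rest. It held the highest of the 6 values for 35.7% of the members compared, and for 32.6% of all genes compared. Differences of the members that separated the classes are therefore also given without it, and the plot of differences shows both values. The 10 listed oocyte markers, all in the files and with only NOBOX averaging below 1 FPKM, summed to between 13350 and 26248 FPKM in BCB-positive oocytes and between 18802 and 30179 FPKM in BCB-negative oocytes. Of 12 granulosa and cumulus markers, 7 were in the files, and they summed to between 28.6 and 37.8 FPKM in BCB-positive oocytes and between 20.2 and 31.2 FPKM in BCB-negative oocytes. INHBA made up most of these sums, the low HSD17B1 and STAR were ordered higher in BCB-positive oocytes, CYP19A1 and CYP11A1 averaged below 1 FPKM, and FSHR, FOXL2 and HAS2 were not matched. Of 6 blood and immune markers, 2 were in the files and summed to between 2.93 and 4.60 FPKM in BCB-positive oocytes and between 0.11 and 1.19 FPKM in BCB-negative oocytes, mostly from CD3E, with PTPRC at 0 in 5 of the 6 oocytes. The part of such cells in the differences below was not tested. The class means of a single-cell comparison also cannot separate more transcripts of a gene from a smaller total of other RNA.

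As a set, the members were more abundant than most genes. FPKM counts fragments scaled for transcript length and for library depth, so it allows genes to be compared with each other. The 84 members with a mean of at least 1 FPKM had a median level of 30.4 FPKM, against 8.98 FPKM over the 11495 genes that passed the same filter. Means were at least 100 FPKM for 18 members, between 10 and 100 FPKM for 44, between 1 and 10 FPKM for 22 and under 1 FPKM for 11. The level went with transcript length. The 33 members listed at 3000 bases or more had a median of 4.29 FPKM, and the 41 members under 1500 bases had a median of 69.2 FPKM. Across all 95 members, those under 1 FPKM included, the Spearman rho of level against listed length was -0.57. Across all genes compared, which had all passed the filter of 1 FPKM, it was -0.12. Genes are not independent replicates, and all points share the same 6 libraries. The cDNA was primed from the poly(A) tail, and the part of this step in the relation was not tested.

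**Figure D1:**
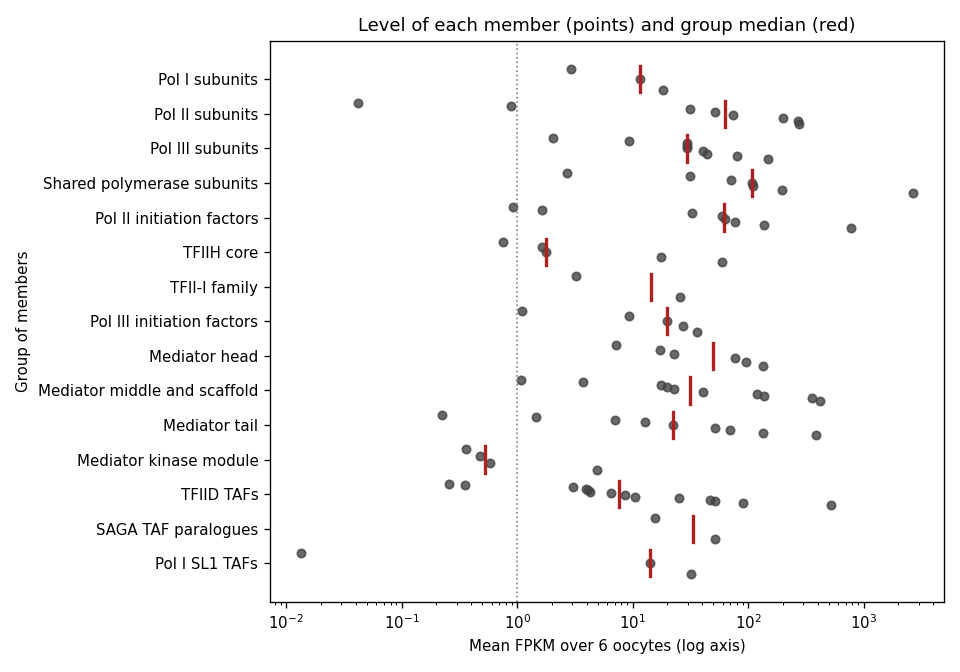
Mean FPKM over the 6 oocytes on a log axis for each of the 95 members (points), by group, with the group median as a red bar and a dotted line at the filter of 1 FPKM. Shared polymerase subunits hold the highest member, POLR1D, and the Mediator kinase module has the lowest group median, 0.52 FPKM.

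Subunits shared between polymerases held the highest level of the machinery. POLR1D, a subunit of polymerases I and III, measured 3027, 2224 and 1645 FPKM in the BCB-positive oocytes, against 3206, 2828 and 3170 FPKM in the BCB-negative oocytes. Its groups overlapped, and its log2 difference (BCB-positive minus BCB-negative, on the log2(FPKM + 1) scale used throughout) was -0.46 (SD 0.32). Its partner in both enzymes, POLR1C, averaged 3.68 ± 1.64 FPKM in BCB-positive oocytes and 1.71 ± 1.14 FPKM in BCB-negative oocytes (SD, n = 3 each). POLR1C overlaps XPO5 in the reference annotation, a gene at 20.39 to 31.05 FPKM, and is uncertain. Of the subunits common to all 3 polymerases, POLR2K averaged 197 FPKM over the 6 oocytes, POLR2H 110.0 FPKM, POLR2L 70.6 FPKM and POLR2E 31.7 FPKM. Their differences lay between -0.35 for POLR2L and 0.21 for POLR2K. The 7 shared subunits had a median difference of -0.20.

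POLR2F, also common to all 3 polymerases, was nearly absent from some BCB-positive oocytes. It measured 0.02, 243 and 0 FPKM in the BCB-positive oocytes, against 131, 130.0 and 140 FPKM in the BCB-negative oocytes. The underlying expected counts were 0.08, 1023 and 0 in BCB-positive oocytes and 513, 516 and 521 in BCB-negative oocytes. A count of 0 allows up to 3 counts, by counting error alone. The classes overlapped because BCB-positive oocyte 2 held the highest value of the 6. The log2 difference of -4.42 had an SD of 3.23, and it was -3.09 without BCB-positive oocyte 3. The files list a single transcript of 586 bases for this gene.

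Among subunits of polymerase II itself, the small and middle-sized ones were abundant and even between classes. POLR2C, which helps assemble the enzyme, measured 260, 345 and 219 FPKM in the BCB-positive oocytes, against 262, 262 and 294 FPKM in the BCB-negative oocytes. POLR2G, of the stalk that binds emerging RNA, averaged 273 ± 88.9 FPKM in BCB-positive oocytes and 265 ± 17.6 FPKM in BCB-negative oocytes. POLR2C differed by -0.01 (SD 0.24) and POLR2G by 0.00 (SD 0.32). POLR2J, POLR2I, POLR2D and POLR2M averaged 200.3, 73.8, 51.8 and 31.2 FPKM, and all 6 differences in this group lay between -0.18 for POLR2I and 0.20 for POLR2D. Their median was -0.01, and it was -0.11 under size factor scaling and 0.09 when FPKM sums were made equal. The 2 largest subunits, which form the catalytic centre, both averaged under 1 FPKM over the 6 oocytes. POLR2A had 0 counts in BCB-positive oocytes and 7 in BCB-negative oocytes, all of them in BCB-negative oocyte 2. POLR2B averaged 0.71 ± 0.97 FPKM in BCB-positive oocytes and 1.06 ± 0.35 FPKM in BCB-negative oocytes, on 77 and 93 counts. The listed POLR2A transcript had 3771 bases, which is shorter than the full-length messenger RNA known in other mammals, and the part of this in its count was not tested. POLR2B overlaps IGFBP7 in the reference annotation, a gene at 356 to 1194 FPKM, and is uncertain.

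The large subunits of the other polymerases were also unequal. For polymerase I, the largest subunit POLR1A averaged 2.94 FPKM over the 6 oocytes and the second largest, POLR1B, 18.3 FPKM. POLR1A overlaps PTCD3, which stood at 14.45 to 24.43 FPKM, and is uncertain. For polymerase III, the largest subunit POLR3A averaged 29.6 FPKM and the second largest, POLR3B, 2.03 FPKM. POLR3A was one of the steadiest members. It measured 26.6, 26.9 and 29.5 FPKM in the BCB-positive oocytes, against 27.7, 32.9 and 34.0 FPKM in the BCB-negative oocytes, a difference of -0.18 (SD 0.12). The 3 measured polymerase I subunits, POLR1A, POLR1B and POLR1E, differed by 0.07, 0.36 and 0.54, each with overlapping classes.

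Polymerase III also held a subunit that separated the classes, POLR3E. A member was counted as lower or higher where all 3 oocytes of a class lay beyond all 3 of the other and the class means were at least 1.5-fold apart. POLR3E (NCBI gene 100523894), a subunit that belongs to polymerase III alone, measured 30.4, 27.3 and 31.4 FPKM in the BCB-positive oocytes, against 67.5, 45.7 and 41.6 FPKM in the BCB-negative oocytes. Its difference was -0.75 (SD 0.27), and its highest value came from BCB-negative oocyte 1. The counts behind POLR3E were 2376 (95% exact Poisson interval 2281 to 2474) in BCB-positive oocytes and 3661 (3543 to 3782) in BCB-negative oocytes, an interval that covers counting error only. POLR3E differed by -0.79 without BCB-positive oocyte 3, and by -0.54, short of 1.5-fold, without BCB-negative oocyte 1.

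Other polymerase III subunits overlapped between the classes. POLR3K differed by 0.27, POLR3C by 0.29, POLR3B by 0.39 and POLR3D by -0.19, all with overlapping classes. POLR3G and POLR3GL are alternative forms of the same subunit, of which POLR3G is typical of pluripotent cells and POLR3GL of differentiated ones. POLR3G measured 39.2, 41.7 and 24.7 FPKM in the BCB-positive oocytes, against 31.4, 23.9 and 17.1 FPKM in the BCB-negative oocytes. POLR3GL measured 8.72, 17.7 and 9.87 FPKM in the BCB-positive oocytes, against 6.45, 10.4 and 2.33 FPKM in the BCB-negative oocytes. POLR3G was the higher form in 6 of 6 oocytes, at 3.21 times the mean of POLR3GL. POLR3GL differed by 0.93 (SD 0.73) and POLR3G by 0.53 (SD 0.41), both with overlapping classes. The 9 polymerase III subunits had a median difference of 0.27, and -0.09 when BCB-positive oocyte 3 was left out.

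For the loading of polymerase II, the germ-cell form of TFIIA far exceeded the general form. TFIIA steadies the TATA-binding protein on DNA and has a large subunit, GTF2A1 or GTF2A1L, and a small one, GTF2A2. GTF2A1L measured 60.7, 48.8 and 84.9 FPKM in the BCB-positive oocytes, against 81.4, 50.6 and 32.8 FPKM in the BCB-negative oocytes. GTF2A1 measured 0.98, 1.03 and 1.31 FPKM in the BCB-positive oocytes, against 0.44, 0.74 and 0.99 FPKM in the BCB-negative oocytes. GTF2A1L was the higher gene in 6 of 6 oocytes, with means 65.4-fold apart, and the log2 ratio of the pair was 4.93 in BCB-positive oocytes and 4.94 in BCB-negative oocytes. GTF2A1 was listed at 5157 bases and GTF2A1L at 1251 bases, and their ratio was not corrected for the relation of level to length. GTF2A1L overlaps LHCGR and GTF2A1 overlaps another gene in the reference annotation. Neither overlapping gene was matched here, so the ratio is uncertain. GTF2A2 was the second most abundant member, at 728 ± 194 FPKM in BCB-positive oocytes and 840 ± 73.3 FPKM in BCB-negative oocytes.

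Other initiation factors of polymerase II overlapped between the classes. GTF2B, which is TFIIB and sets the start site, measured 96.8, 82.3 and 81.4 FPKM in the BCB-positive oocytes, against 100.3, 49.0 and 55.4 FPKM in the BCB-negative oocytes. The subunits of TFIIF, GTF2F1 and GTF2F2, averaged 32.4 and 62.9 FPKM over the 6 oocytes and differed by 0.44 and 0.27. The subunits of TFIIE were far apart in level, with GTF2E2 at 138 FPKM and GTF2E1 at 1.63 FPKM. GTF2E1 overlaps RABL3, which stood at 2.63 to 11.9 FPKM, and is uncertain. GTF2E2 was at 289 FPKM in BCB-positive oocyte 3 and at 76.2 to 153 FPKM in the other 5, so that its difference was 0.49 with that oocyte and 0.01 without it. The median of the 7 compared factors was 0.41, and 0.08 when BCB-positive oocyte 3 was left out.

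TFIIH, which opens DNA at the start site and also serves in repair, had low core subunits apart from GTF2H5 and GTF2H2. GTF2H5, a small stabilising subunit, averaged 62.0 ± 41.0 FPKM in BCB-positive oocytes and 57.1 ± 21.1 FPKM in BCB-negative oocytes. GTF2H2 measured 7.07, 27.8 and 40.6 FPKM in the BCB-positive oocytes, against 9.63, 15.4 and 5.26 FPKM in the BCB-negative oocytes, a difference of 1.05 (SD 1.01) with overlapping classes. GTF2H1, GTF2H4 and GTF2H3 averaged 1.63, 1.76 and 0.76 FPKM. GTF2H4 differed by 0.80 (SD 1.07), with a value of 0 in 1 oocyte of each class. GTF2H3 had 47 counts in BCB-positive oocytes, none of them in BCB-positive oocyte 1, and 0 in BCB-negative oocytes. GTF2I, a factor of signal-responsive promoters, averaged 25.8 FPKM and its relative GTF2IRD1 3.24 FPKM, and GTF2I was the higher in 6 of 6 oocytes.

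Initiation factors of polymerase III also overlapped between the classes. TFIIIA, encoded by GTF3A, binds the 5S ribosomal RNA genes. GTF3A measured 17.1, 26.3 and 7.85 FPKM in the BCB-positive oocytes, against 22.8, 22.0 and 22.4 FPKM in the BCB-negative oocytes. The difference of -0.52 (SD 0.58) became -0.07 without BCB-positive oocyte 3. Of the TFIIIC subunits, GTF3C1 was highest at 35.8 FPKM and GTF3C4 lowest at 1.10 FPKM. GTF3C5 differed by -0.45 (SD 0.33) and GTF3C6 by 0.14.

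Of the 12 compared TFIID subunits 3 were higher and 1 was lower, beside 5.75% and 2.66% of all genes, and without BCB-positive oocyte 3 there was 1 of each, beside 7.19% and 4.4% of all genes. TAF7 (NCBI gene 100523236), a regulator of TFIID that binds TAF1 and restrains its activity, measured 78.6, 89.2 and 200.1 FPKM in the BCB-positive oocytes, against 65.1, 57.8 and 46.5 FPKM in the BCB-negative oocytes. The difference of 0.99 had an SD of 0.54, and it was 0.57, just under 1.5-fold, without BCB-positive oocyte 3. TAF2 (NCBI gene 100155674), which contacts DNA around the start site, measured 4.31, 5.26 and 2.77 FPKM in the BCB-positive oocytes, against 1.76, 2.38 and 1.75 FPKM in the BCB-negative oocytes. All BCB-positive values of TAF2 lay above 2.38 FPKM, and its difference was 0.76 (SD 0.29), or 0.97 without BCB-positive oocyte 3. TAF2 rested on 467 counts (426 to 511) in BCB-positive oocytes and 201 counts (174 to 231) in BCB-negative oocytes. TAF5 (NCBI gene 100152210), a scaffold of the TFIID core, measured 6.60, 5.98 and 13.0 FPKM in the BCB-positive oocytes, against 5.82, 5.89 and 1.64 FPKM in the BCB-negative oocytes. TAF5 was ordered by a gap of 5.89 to 5.98 FPKM. Its difference of 0.86 (SD 0.68) was 0.55 once BCB-positive oocyte 3 was left out and 0.40 once BCB-negative oocyte 3 was, short of 1.5-fold in both cases. TAF5 overlaps USMG5, which stood at 51.3 to 130 FPKM, and is uncertain.

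TAF13 went the other way. TAF13 (NCBI gene 100157095), a histone-fold subunit that pairs with TAF11, measured 5.48, 6.57 and 6.33 FPKM in the BCB-positive oocytes, against 7.21, 13.6 and 12.6 FPKM in the BCB-negative oocytes. BCB-negative oocyte 1 lay close to the BCB-positive oocytes, and the difference was -0.72 (SD 0.33). It was -0.57 without BCB-negative oocyte 2, where TAF13 no longer reached 1.5-fold, and -0.75 without BCB-positive oocyte 3. TAF13 did not meet the rule either when FPKM sums were made equal, where it differed by -0.64. Its partner TAF11 averaged 59.0 ± 26.8 FPKM in BCB-positive oocytes and 34.1 ± 6.20 FPKM in BCB-negative oocytes, with overlapping classes and a difference of 0.68 (SD 0.54).

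**Figure D2:**
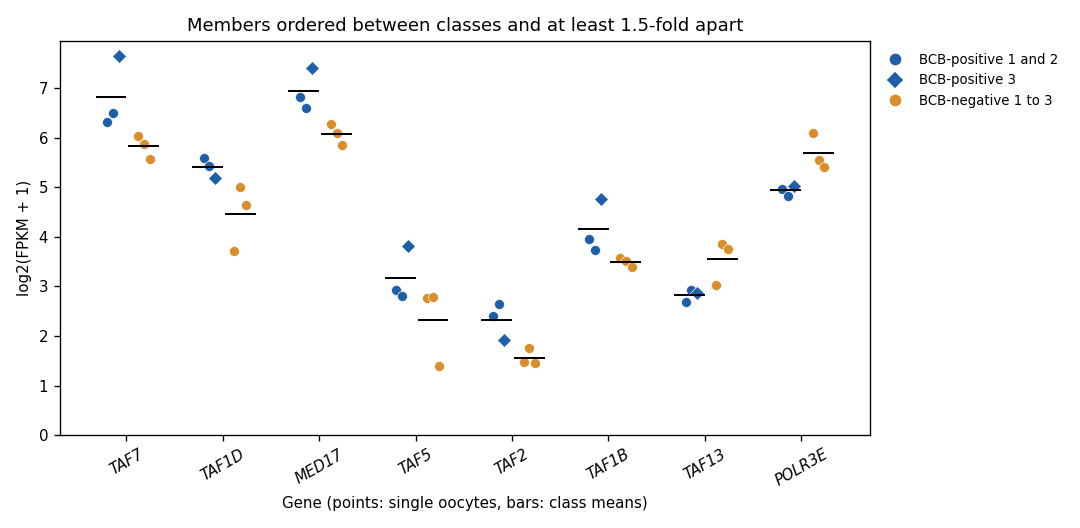
log2(FPKM + 1) of 8 members ordered between the classes and at least 1.5-fold apart, with BCB-positive oocytes in blue (oocyte 3 as a diamond), BCB-negative oocytes in orange and class means as bars. TAF7, TAF5 and TAF1B are drawn up by BCB-positive oocyte 3, and POLR3E and TAF13 lie lower in BCB-positive oocytes.

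The other TFIID subunits did not separate the classes. TAF10, TAF4 and TAF3 averaged 51.8, 25.3 and 4.29 FPKM and differed by 0.16, -0.21 and -0.14. TAF12 and TAF8 averaged 3.90 and 4.09 FPKM and differed by 0.12 and 0.78, with an SD of 0.96 for TAF8. TAF1, the largest subunit, had 54 counts in BCB-positive oocytes and 30 in BCB-negative oocytes, and it was at most 0.92 FPKM. TAF7L, a paralogue of TAF7 known from mouse germ cells, had 0 counts in BCB-positive oocytes and 24 in BCB-negative oocyte 1 alone. TAF7 was thus the higher of the pair in 6 of 6 oocytes. TAF9B, a paralogue of TAF9, averaged 13.8 ± 6.24 FPKM in BCB-positive oocytes and 7.07 ± 2.21 FPKM in BCB-negative oocytes, with overlapping classes and a difference of 0.81 (SD 0.59). The 12 compared TFIID subunits had a median difference of 0.58, and of 0.44 without BCB-positive oocyte 3.

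TAF9 was uneven between oocytes of both classes. It measured 1215, 281 and 271 FPKM in the BCB-positive oocytes, against 161, 215 and 959 FPKM in the BCB-negative oocytes. BCB-positive oocyte 1 and BCB-negative oocyte 3 stood above the other 4, so the unevenness did not follow the class. A listed TAF9 transcript of 894 bases carried it, with 1123, 116 and 43.7 FPKM in the BCB-positive oocytes, against 48.3, 86.4 and 857 FPKM in the BCB-negative oocytes. The other abundant transcript, of 1152 bases, measured 90.3, 161 and 221 FPKM in the BCB-positive oocytes, against 112, 125 and 101 FPKM in the BCB-negative oocytes. TAF9 overlaps AK6 in the reference annotation, AK6 was not matched here, and TAF9 is therefore uncertain.

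Both subunits that passed the filter in SL1, the TAF-containing factor that places polymerase I on ribosomal DNA, were higher in BCB-positive oocytes, as were 5.75% of all genes. Neither was ordered and 1.5-fold apart under size factor scaling, where TAF1D differed by 0.85 and TAF1B by 0.56. TAF1D (NCBI gene 100738413) measured 47.6, 42.0 and 35.4 FPKM in the BCB-positive oocytes, against 12.1, 31.0 and 24.2 FPKM in the BCB-negative oocytes. Its difference was 0.95 (SD 0.49), and it was 1.06 without BCB-positive oocyte 3 but 0.58, just under 1.5-fold, without BCB-negative oocyte 1. TAF1B (NCBI gene 397176) measured 14.6, 12.3 and 26.4 FPKM in the BCB-positive oocytes, against 11.0, 10.5 and 9.51 FPKM in the BCB-negative oocytes. The difference of TAF1B was 0.66 (SD 0.39), and 0.35 without BCB-positive oocyte 3. TAF1D overlaps CEP295, which differed by 1.15, so part of its reads could be shared. TAF1C, the third measured SL1 subunit, had 2 counts in BCB-positive oocytes and 0 in BCB-negative oocytes. In the coactivator SAGA, TAF5L and TAF6L take the places of TAF5 and TAF6. TAF5L averaged 51.5 FPKM, was the higher of TAF5L and TAF5 in 6 of 6 oocytes, and differed by -0.03. TAF6L differed by 0.54 (SD 0.37).

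**Figure D3:**
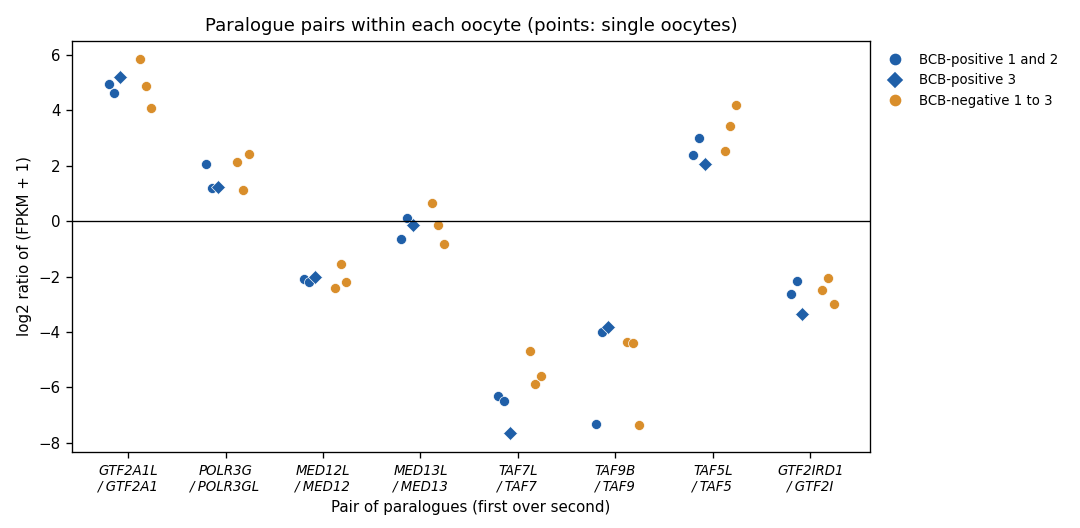
log2 ratio of (FPKM + 1) within each oocyte for 8 pairs of paralogues, BCB-positive oocytes in blue (oocyte 3 as a diamond) and BCB-negative oocytes in orange. GTF2A1L, POLR3G and TAF5L exceed their paralogue in 6 of 6 oocytes, TAF7, TAF9, MED12 and GTF2I exceed theirs in 6 of 6, and the pair of MED13L and MED13, both under 1 FPKM on average, has no fixed order.

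Mediator, the largest complex of the set, held 1 separated member. MED17 (NCBI gene 100516331), the backbone of the head that binds polymerase II, measured 112, 96.1 and 169 FPKM in the BCB-positive oocytes, against 76.2, 67.9 and 56.7 FPKM in the BCB-negative oocytes. Every BCB-positive oocyte lay above every BCB-negative one, with means of 126 ± 38.5 FPKM in BCB-positive and 66.9 ± 9.79 FPKM in BCB-negative oocytes. The difference was 0.87 (SD 0.33), and it stayed at least 1.5-fold in all 12 alternatives run for single members, at 0.63 without BCB-positive oocyte 3. The class means of all 6 head subunits lay higher in BCB-positive oocytes, as did those of 6669 of the 11495 genes compared. MED11 differed by 1.17 (SD 0.82), MED6 by 0.78 (SD 0.86), MED20 by 0.44, MED18 by 0.33 and MED8 by 0.18, all with overlapping classes. MED6 was at 359 FPKM in BCB-positive oocyte 3 and at 67.1 to 118 FPKM in the other 5, and it differed by 0.14 without that oocyte. The median of the head was 0.61, and 0.28 without BCB-positive oocyte 3.

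In the middle and scaffold of Mediator, MED4 split the oocytes into high and low ones. It measured 341, 590 and 496 FPKM in the BCB-positive oocytes, against 92.8, 72.2 and 557 FPKM in the BCB-negative oocytes. BCB-negative oocyte 3 lay among the BCB-positive oocytes, so the classes overlapped and the difference of 1.57 (SD 1.17) did not count. MED21 was the highest of this group, at 386 ± 219 FPKM in BCB-positive oocytes and 448 ± 180 FPKM in BCB-negative oocytes. MED9 differed by 0.73 (SD 0.97), MED26, at a mean of 1.08 FPKM, by 0.65 (SD 0.42) and MED19 by 0.52 (SD 0.42). MED14, the scaffold that joins the modules, averaged 22.8 FPKM and differed by 0.41 (SD 0.27), and MED1, which contacts nuclear receptors, averaged 17.6 FPKM and differed by 0.34 (SD 0.33). MED7, MED31 and MED10 differed by 0.44, -0.08 and -0.26. The median of the 10 subunits was 0.42, and 0.32 without BCB-positive oocyte 3.

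**Figure D4:**
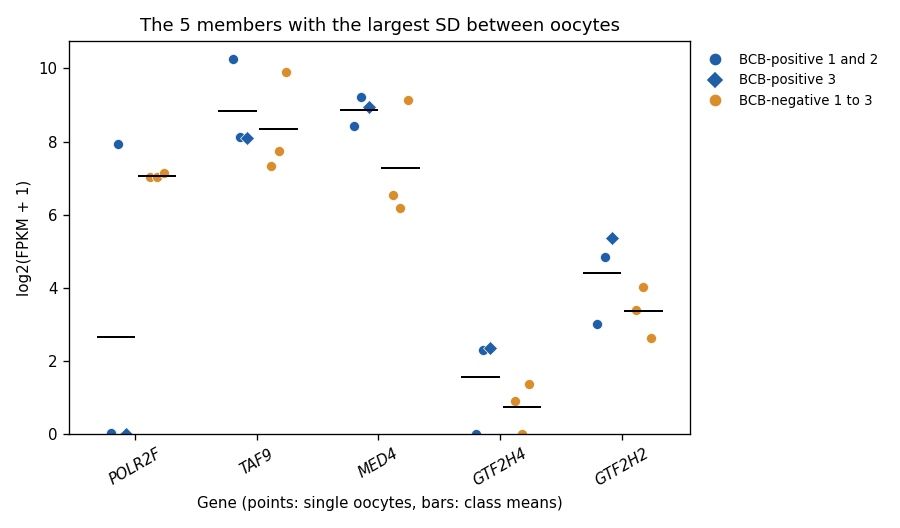
log2(FPKM + 1) of the 5 compared members with the largest SD between oocytes of a class, with BCB-positive oocytes in blue (oocyte 3 as a diamond), BCB-negative oocytes in orange and class means as bars. POLR2F is at or near 0 in BCB-positive oocytes 1 and 3 alone, TAF9 is high in 1 oocyte of each class, and MED4 is low in BCB-negative oocytes 1 and 2.

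The Mediator tail, which regulators bind, had a median difference of 0.01, which was -0.07 under size factor scaling and 0.10 when FPKM sums were made equal. MED28 and MED15 were among the steadiest members. MED28 averaged 401 ± 60.1 FPKM in BCB-positive oocytes and 366 ± 42.7 FPKM in BCB-negative oocytes, and MED15 averaged 55.4 ± 5.99 FPKM in BCB-positive oocytes and 47.8 ± 6.78 FPKM in BCB-negative oocytes. MED25 measured 24.9, 15.4 and 7.09 FPKM in the BCB-positive oocytes, against 15.7, 33.2 and 36.7 FPKM in the BCB-negative oocytes, and its difference was -0.88 (SD 0.75) and -0.43 without BCB-positive oocyte 3. MED27, MED30, MED24 and MED16 differed by 0.39, 0.15, -0.19 and -0.35. MED29 averaged 1.46 FPKM and differed by -0.10. It overlaps PAF1, which stood at 2.28 to 33.3 FPKM, and is uncertain. MED23 had 46 counts in BCB-positive oocytes and 13 in BCB-negative oocytes. Of the kinase module, which can hold Mediator away from polymerase II, MED12 averaged 4.39 ± 0.51 FPKM in BCB-positive oocytes and 5.52 ± 1.05 FPKM in BCB-negative oocytes. MED12L, MED13 and MED13L averaged 0.47, 0.58 and 0.36 FPKM.

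Over all members, 6 of the 84 compared were ordered and at least 1.5-fold higher in BCB-positive oocytes, or 7.14%, against 5.75% of all genes compared. The 6 were TAF7, TAF1D, MED17, TAF5, TAF2 and TAF1B. The members that were lower numbered 3, POLR3E and TAF13 among them, or 3.57% of members, against 2.66% of all genes. Both shares lay near those of all genes. Of the 16 compared TAFs 5 were higher and 1 lower, and without BCB-positive oocyte 3 there were 2 and 1. Under size factor scaling the higher TAFs were TAF7 and TAF2 alone. Of the 25 Mediator subunits 1 was higher and 0 lower, of the 25 polymerase subunits 0 were higher, and of the 18 general factors 0 were higher and 0 lower. None of the 9 members meeting the rule was 2-fold apart on the log2(FPKM + 1) scale, while the ratio of mean FPKM was 2.17 for TAF7 and 2.10 for TAF2. Under size factor scaling 3 members were higher and 3 lower, beside 4.54% and 3.70% of all genes, and when every oocyte's FPKM sum was made equal 6 were higher and 1 lower, beside 7.12% and 1.96%. The median difference of the members was 0.24, against 0.11 over all genes compared, and 56 of 84 members had the higher mean in BCB-positive oocytes, as did 6669 of the 11495 genes. The members' median was 0.14 and that of all genes 0.05 without BCB-positive oocyte 3. Without that oocyte 5 members were higher, or 5.95%, against 7.19% of all genes, and 2 were lower, or 2.38%, against 4.4% of all genes. Of the 9 members meeting the rule, MED17, TAF1D, TAF2, POLR3E and TAF13 still met the rule then, and MED19 and POLR3G met it in addition. Without BCB-positive oocyte 1 there were 15 higher and 6 lower members, beside 13.7% and 6.92% of all genes. Without BCB-positive oocyte 2 there were 10 and 5, beside 10.3% and 5.46% of all genes, and without BCB-negative oocyte 1 there were 14 and 3, beside 11.1% and 5.53%. Less than 1.5-fold separated the classes for 72.6% of members and for 71.7% of all genes.

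**Figure D5:**
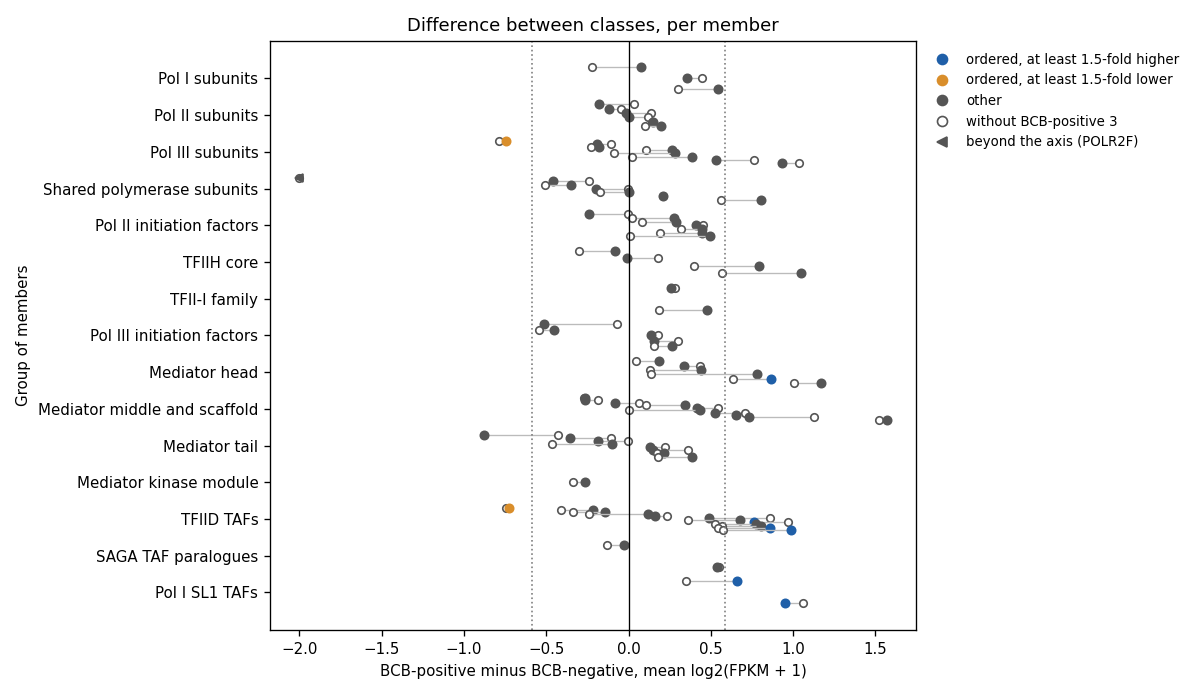
BCB-positive minus BCB-negative difference of mean log2(FPKM + 1) for 83 of the 84 compared members, by group, with all 6 oocytes (filled) and without BCB-positive oocyte 3 (open), and dotted lines at 1.5-fold. Members ordered and at least 1.5-fold higher are blue, those lower are orange, and POLR2F, at -4.42, lies beyond the left edge.

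Partner genes of the pathway were compared in the same way. Of 46 listed partners 39 were in the files and 30 were compared, of which 1 was higher and 1 lower, beside 5.75% and 2.66% of all genes. Without BCB-positive oocyte 3 there were 3 higher, CCNH, HEXIM1 and GPN3, and 0 lower, beside 7.19% and 4.4% of all genes. CCNH, the cyclin of the kinase in TFIIH, measured 22.2, 22.3 and 22.5 FPKM in the BCB-positive oocytes, against 10.1, 18.0 and 15.8 FPKM in the BCB-negative oocytes, a difference of 0.62 (SD 0.29). NELFA, of the complex that pauses polymerase II, measured 23.2, 24.8 and 13.6 FPKM in the BCB-positive oocytes, against 26.6, 35.3 and 32.0 FPKM in the BCB-negative oocytes, a difference of -0.62 (SD 0.35), and of -0.36 without BCB-positive oocyte 3. TBPL1 and TBPL2, relatives of the TATA-binding protein, averaged 124 and 4.76 FPKM and differed by 0.27 and -0.11. TBP, the gene of the TATA-binding protein itself, was not matched, so its level cannot be set beside theirs. The highest partner of the other lists was CDK7 of the TFIIH kinase at 57.8 FPKM, SNAPC2 of small nuclear RNA genes at 123 FPKM, NELFE of pausing at 73.6 FPKM and RPAP3 of polymerase assembly at 58.6 FPKM. CCNC of the Mediator kinase and RRN3 of polymerase I averaged 0.46 and 0.18 FPKM. The median difference of the compared partners was 0.30, and 0.09 without BCB-positive oocyte 3.

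The share of each transcript within its gene was also compared. Of the 24 members that reached 5 FPKM in all 6 oocytes and had several listed transcripts, 0 had a transcript whose share was ordered and at least 20 percentage points apart, against 3.53% of 1956 such genes. POLR2I was ordered and came closest to that limit, and is named after its values were seen. Its 804-base transcript made up 83.0%, 83.4% and 72.2% of the gene's FPKM in BCB-positive oocytes and 63.6%, 63.6% and 54.0% in BCB-negative oocytes, a difference of 19.1 points. POLR2H was ordered too, by 0.69 points.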

How the data were processed

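Poly(A)-primed, PCR-amplified cDNA of 6 single oocytes was sequenced, per the labels' protocols, which name no molecular identifiers, so counts are not independent molecules. RSEM, Cufflinks, BWA and build Sscrofa10.2 are named in the submitters' processing notes, and the sources used here give neither order nor version. The deposited files list genes and transcripts with their length, their expected count and the FPKM that the authors scaled for length and depth. The deposited expected counts need not be whole, and class sums were rounded for 95% exact Poisson intervals. Genes that a file does not list were taken as 0.

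Symbols came by NCBI gene ID from the RefSeq table of assembly Sscrofa11.1, which matched 13936 of 19300 genes and was also used to see which genes overlap (42 members overlapped another gene). Only some of these overlaps are named above. No sequences or coordinates are reported. The values of 1 member are not reported here, and it stays in the counts and medians. Genes averaging 1 FPKM or more over 6 oocytes were compared as mean log2(FPKM + 1), BCB-positive minus BCB-negative. This scale understates differences of low genes. The SD of a difference is pooled over the classes, and other SDs are of FPKM. A member was counted where it was ordered and at least 1.5-fold apart on that scale. No p-value was computed, because the labels name no animal or culture. The rule was run on simulated data whose genes shared a common SD and whose planted differences exceeded those of the members counted. That run does not show how often the rule finds differences near 1.5-fold.

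Named were members meeting the rule, the extremes of level, difference and SD in each group, paralogue pairs and leading partners. Members, lists and named genes were chosen with earlier results of these data known. Alternatives were another pseudocount, size factor and common-sum scaling, CPM, other filters, other folds, and leaving out each oocyte. Python 3.11.15, pandas 2.3.3, numpy 2.4.6 and scipy 1.17.1 were used.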

Additional observations from a re-analysis of the deposited data

How the results depend on the processing

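Counts of members moved most when an oocyte was left out, where the rule asks for the order of fewer oocytes. Leaving out each oocyte in turn gave 5 to 15 higher members and 2 to 6 lower ones, against 6 and 3 with all, while the shares of all genes were 7.19% to 13.7% higher and 4.4% to 6.92% lower, against 5.75% and 2.66%. Asking for 2-fold gave 0 and 0, beside 2.86% and 1.11% of all genes. Size factor scaling gave 3 higher members, losing TAF1B, TAF1D and TAF5, and equal FPKM sums gave 1 lower member, losing TAF13 among others. The members' median of 0.24 was 0.14 under size factors, 0.31 with equal sums, and 0.14 to 0.30 with an oocyte left out, lowest without BCB-positive oocyte 3. The median of polymerase III subunits was 0.17 under size factors, 0.36 with equal sums, 0.044 with a filter at 5 FPKM and -0.090 to 0.26 with an oocyte left out. Leaving out an oocyte gave medians of 0.081 to 0.62 for polymerase II initiation factors and of -0.090 to 0.15 for polymerase III initiation factors, and the polymerase III factors stood at -0.16 with a filter at 5 FPKM. The TFIID median was 0.32 with no filter. The cause of these shifts was not tested. None of the 9 members meeting the rule changed direction under the alternatives run, and MED17 and TAF2 met it in each that kept them and the 1.5-fold limit. No paired analysis was possible because the labels do not tie oocytes of the same number to each other and no test was made. POLR2A, TAF1C, TAF7L and GTF2H3 had 0 counts in a class, and the part of depth in this was not tested.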
